A study of Mus musculus with 6 samples.

Results

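The CC chemokines described here are 10 mouse ligand genes, Ccl2, Ccl3, Ccl4, Ccl5, Ccl6, Ccl7, Ccl8, Ccl9, Ccl12 and Ccl24, out of 22180 named genes measured on Affymetrix arrays in primary lung fibroblast cultures. Each was taken from the probe set that carried its symbol and no other, and of several, the brightest on average over the 6 arrays was to be used. Each of the 10 genes had 1 such probe set. Probe sets were thus chosen by their mean signal over all arrays, and the genes were selected on results of this comparison: they were listed with earlier results of the same comparison known. The differences of single genes are therefore a description, given with the test of the whole table, and no p-value is given for the list.

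The cultures came from digested lungs of male, wild-type C57BL/6 mice aged 8 weeks, in which fibroblasts were enriched, grown in medium with serum and carried through no more than 3 passages. The cells were spread over wells given either vehicle, in 3 wells, or purmorphamine, in 3 wells, for 24 h, with 1 array per well. Purmorphamine, a purine derivative, switches on Smoothened, which lies at the cell membrane and passes Hedgehog signals on to Gli transcription factors, and its dose, written 5um in the labels, is read as 5 µM. The comparison asks which transcripts the Hedgehog agonist changed. How many mice or cell pools fed the wells is not stated, so each p-value reflects spread among wells alone, and that spread may be technical.

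Chemokines are small secreted proteins that draw leukocytes along a concentration gradient by binding G-protein-coupled receptors, and the CC class is named for the adjacent cysteines near the amino end of the protein. The monocyte chemoattractant group (Ccl2, Ccl7, Ccl8 and Ccl12) and the macrophage inflammatory protein group (Ccl3 and Ccl4, with the rodent relatives Ccl6 and Ccl9) lie in neighbouring clusters and are best known as products of macrophages, and in part of fibroblasts, under signals such as interleukin 1, tumour necrosis factor and endotoxin. Many of them share receptors: Ccr2 is the receptor of Ccl2, Ccl7 and Ccl12, and Ccr1 binds Ccl3, Ccl5, Ccl6, Ccl7 and Ccl9.

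Values are log2 signals of single probe sets, so they are compared between arrays and not between genes. A group mean was named near background when it lay under 6.24, the 95th percentile of 1390 olfactory and vomeronasal receptor genes, which lung cells are not known to use. A gene was called when its adjusted p (limma, Benjamini-Hochberg over all genes) was under 0.05. Array medians lay between 6.34 and 6.39, precision is limited by the small number of arrays, and the median standard error of a difference was 0.07.

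The 10 genes moved in different directions. Ccl12, the mouse monocyte chemoattractant protein 5, fell from a clear signal into the range of background. Ccl2 and Ccl7, the other main Ccr2 ligands, fell by 1.26-fold and 1.45-fold. Ccl3 rose by 1.80-fold while its neighbour Ccl4 fell by 1.87-fold. Ccl6 and Ccl9, which gave strong signals, differed by 1.08-fold (higher) and 1.05-fold (lower) and were not called. In all, 1 of the 10 genes rose and 5 fell, where 7.18% of all genes tested were called higher and 7.16% lower. The genes were listed with these results known, and the shares are therefore not read against each other. The median difference of the 10 genes was -0.21, beside -0.01 over all genes tested. The 2 arrays numbered replicate 3 lie apart from the others on the second principal component (13.2% of the variance). Without both of them, and so with fewer samples, 1 gene rose and 3 fell, and Ccl2 (limma adjusted p = 0.074) and Ccl24 (0.11) were not called. Over all genes, 440 were then called higher and 511 lower, in place of 1593 and 1588.

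**Figure D1:**
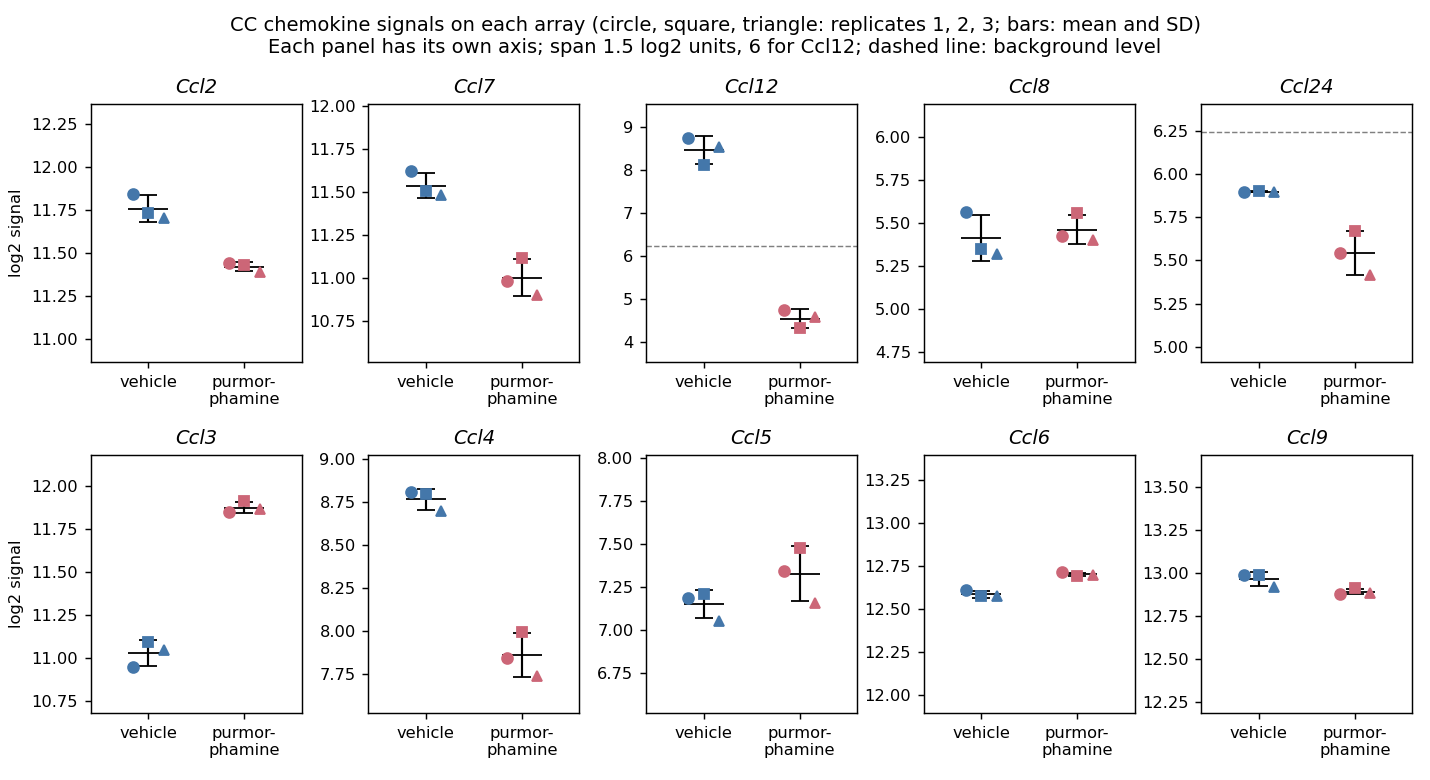
Log2 signal (vertical axes, one scale per panel) of the 10 CC chemokine genes in the 3 vehicle and 3 purmorphamine wells, with the mean and SD of each group. The groups are apart in Ccl12, Ccl3, Ccl4, Ccl7, Ccl2 and Ccl24 narrowly apart in Ccl6 and Ccl9, and overlap in Ccl5 and Ccl8. The dashed line, drawn where it falls inside a panel, is the background level of 6.24.

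Ccl12 lies between Ccl11 and Ccl8 in the first of the clusters on chromosome 11, where 6 CC genes (Ccl2, Ccl7, Ccl11, Ccl12, Ccl8 and Ccl1) follow each other with no other protein-coding gene between them. Upstream sequences of the RefSeq table were at hand for 5 of the 10 genes: Ccl12, Ccl8, Ccl3, Ccl6 and Ccl9. Those of the neighbours Ccl12 and Ccl8 are shown because the first had the largest fall and the second stayed near background in both groups. They hold the 250 bases before the annotated start site, 5′ to 3′ on the plus strand of GRCm38.p6, at chr11:82101595-82101844 for Ccl12 and at chr11:82114935-82115184 for Ccl8. Capitals mark the letters TATAAA, at which the general transcription machinery binds in many genes.
Ccl12: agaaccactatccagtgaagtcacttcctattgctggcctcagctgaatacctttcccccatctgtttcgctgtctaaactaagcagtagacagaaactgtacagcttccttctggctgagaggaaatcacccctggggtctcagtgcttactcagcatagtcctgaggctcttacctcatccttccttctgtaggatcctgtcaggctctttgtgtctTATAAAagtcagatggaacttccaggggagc
Ccl8: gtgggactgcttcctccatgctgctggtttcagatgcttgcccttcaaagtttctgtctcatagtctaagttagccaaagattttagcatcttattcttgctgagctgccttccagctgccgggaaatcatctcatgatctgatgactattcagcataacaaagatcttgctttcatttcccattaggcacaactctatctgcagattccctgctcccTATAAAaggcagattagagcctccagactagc
Both held this element, known as the TATA box, at 1 place, which began 31 bases before the start site in Ccl12 and 32 bases before it in Ccl8, and 12.4% of 32851 such sequences in the table hold these letters on either strand. The other motifs searched, on both strands, were the 10-letter NF-kB consensus (held by 7.25% of all sequences), AP-1 as TGANTCA (6.75%), an interferon response element as GAAANNGAA (7.13%) and a Gli site as GACCACCCA (0.225%). Neither window held their letters, which says nothing of sites elsewhere.

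Ccl12 had vehicle signals of 8.75, 8.10 and 8.52 and purmorphamine signals of 4.75, 4.33 and 4.57. The lowest vehicle array lay 3.36 log2 units above the highest purmorphamine array, so the groups were far apart. On average Ccl12 fell by 3.91 log2 units, with an SE of 0.18 (limma adjusted p = 6.70e-05), and this was the largest fall among the genes tested. All 3 treated wells lay under the background level, so the size of the fall is not exact. The vehicle mean of Ccl12 lay 2.22 log2 units (4.64-fold) above that level, a distance that makes no allowance for the spread of the vehicle wells. After adding a linear offset of 50 to all signals the difference was -2.45.

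Ccl2, monocyte chemoattractant protein 1, recruits monocytes that carry Ccr2. Its signals were 11.85, 11.73 and 11.70 in vehicle wells and 11.44, 11.43 and 11.39 in purmorphamine wells. Each treated well lay under each vehicle well. The fall was 0.34 log2 units and passed the test (adjusted p = 0.0097), also with any 1 array left out (limma adjusted p from 0.022 to 0.040).

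Ccl7, monocyte chemoattractant protein 3, is the next gene after Ccl2 on the chromosome. Its signals were 11.62, 11.51 and 11.48 with vehicle and 10.98, 11.12 and 10.90 with purmorphamine, and the groups did not overlap. The fall was 0.53 log2 units, with an SE of 0.07 (limma adjusted p = 0.0040). With 1 array left out its adjusted p was 0.0073 to 0.020.

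Ccl8, monocyte chemoattractant protein 2, gave 5.56, 5.35 and 5.32 with vehicle and 5.42, 5.56 and 5.40 with purmorphamine. The groups overlapped, both means were near background, and the difference of 0.05 (95% interval -0.15 to 0.24) bounds the array signal and not the transcript. The unlisted neighbours Ccl11, the eosinophil chemoattractant eotaxin, and Ccl1, a ligand of Ccr8, differed by -0.17 and -0.24 and were not called (limma adjusted p = 0.12 and 0.17). In this cluster 3 genes fell, 0 rose and 3 were not called, where 7.16% of all genes tested were called lower and 7.18% higher. Ccl2, Ccl7, Ccl12 and Ccl8 were listed with results known, so the count is not read as a response of the cluster.

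Ccl24, eotaxin 2, is a ligand of Ccr3 and an eosinophil attractant that macrophages are known to make under interleukin 4. It lies on chromosome 5 beside Ccl26. Its vehicle signals were 5.90 in each of the 3 wells, and its purmorphamine signals were 5.54, 5.67 and 5.42. Although the groups were apart and the fall of 0.36 log2 units was called (limma adjusted p = 0.019), both means were near background. The call was lost without vehicle replicate 1, vehicle replicate 2, vehicle replicate 3 or purmorphamine replicate 1 (limma adjusted p from 0.057 to 0.063). Its neighbour Ccl26, an eotaxin too, differed by -0.04.

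The second cluster on chromosome 11 holds Ccl5, Ccl9, Ccl6, Ccl3 and Ccl4 in a row. Here 1 gene rose, 1 fell and 3 were not called, where 7.18% of all genes tested were called higher and 7.16% lower. All genes of this cluster are members listed with results known, so this count is not read as a response of the cluster either. The 250 bases before the Ccl3 start site (minus strand, chr11:83649379-83649628, GRCm38.p6) are shown because Ccl3 was the 1 member that rose.
Ccl3: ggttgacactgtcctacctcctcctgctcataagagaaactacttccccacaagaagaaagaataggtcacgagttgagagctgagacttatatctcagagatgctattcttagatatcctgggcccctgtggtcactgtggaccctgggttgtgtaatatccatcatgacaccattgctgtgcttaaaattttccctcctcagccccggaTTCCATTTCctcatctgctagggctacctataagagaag
Capitals mark the 1 motif found here, letters of the interferon response element on the opposite strand, 39 bases before the start. The Ccl6 window held none of the 5 motifs. That of Ccl9 held an AP-1 match (53 bases before the start), an NF-kB match (35 bases before it) and 3 TATA matches, of which the pair at 94 and 92 bases overlap. A match is a description of the letters and not a site in use.

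Ccl3, macrophage inflammatory protein 1 alpha, attracts monocytes, T cells and natural killer cells and is made by activated macrophages. Its vehicle signals were 10.95, 11.09 and 11.05, and its purmorphamine signals were 11.85, 11.91 and 11.86. All treated wells lay above all vehicle wells, with a gap of 0.75 log2 units. Ccl3 rose by 0.84 (SE 0.06, limma adjusted p = 3.25e-04), and with 1 array left out the rise was 0.80 to 0.88.

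Ccl4, macrophage inflammatory protein 1 beta, has overlapping activity and is usually described as induced together with Ccl3. In these wells it went the other way, with 8.81, 8.80 and 8.70 under vehicle and 7.85, 8.00 and 7.74 under purmorphamine. The groups were apart by 0.70 log2 units. Ccl4 fell by 0.90 (SE 0.08, limma adjusted p = 6.89e-04), and both means were above the background level. In the RefSeq table the gene models of Ccl3 and Ccl4 overlap, and probe positions were not used here, so what each probe set binds was not tested.

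Ccl5, known as RANTES, is made by T cells, natural killer cells and macrophages. It gave 7.19, 7.21 and 7.06 with vehicle and 7.35, 7.48 and 7.16 with purmorphamine, groups that overlapped. The difference of 0.18 (95% interval -0.04 to 0.39) was not called (limma adjusted p = 0.27), and a rise of 1.5-fold, 0.58 on the log2 scale, lies outside this interval. Markers of T and natural killer cells were low in the same wells: of 12 measured, 8 were near background in both groups and 0 were called by limma, with 0 also at an unadjusted p under 0.05. Their mean signal lay between 5.52 and 5.74 in vehicle wells and between 5.56 and 5.64 in purmorphamine wells.

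Ccl6 and Ccl9 are mouse chemokines of the myeloid lineage that act on Ccr1. Ccl6 gave 12.61, 12.57 and 12.57 with vehicle and 12.71, 12.69 and 12.70 with purmorphamine. Its difference of 0.11 (95% interval 0.0030 to 0.23) was not called although the groups did not overlap (limma adjusted p = 0.17), and it was called with a linear offset of 50 (0.048) and with a variance trend and robust fit (0.0097). Ccl9 gave 12.99, 12.99 and 12.92 with vehicle and 12.88, 12.91 and 12.88 with purmorphamine, where the groups were apart by 0.0078 only. Its difference of -0.07 (95% interval -0.19 to 0.04) was not called (limma adjusted p = 0.40). Both intervals lie well inside a 1.5-fold change in either direction.

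Groups that did not overlap were found in 8 of the 10 genes, 2 higher and 6 lower, beside 34.2% of all genes tested, 17.1% higher and 17.1% lower. The wells of 1 group lay close together for most members, and the widest spread was that of Ccl12, with SDs of 0.33 in vehicle wells and 0.21 in purmorphamine wells.

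The genes were also compared pair by pair within each array, which removes what is common to an array. Only the change of such a difference between the groups is read, since levels of different probe sets are not compared. Ccl3 minus Ccl4 changed by 1.75 log2 units, with SDs of 0.11 (n = 3) in both groups. Ccl7 minus Ccl2 changed by -0.20 and Ccl6 minus Ccl9 by 0.19. The pairs with Ccl12 have no exact size, because its treated wells lie under the background level: Ccl12 minus Ccl2 changed by -3.57 as measured and by -2.12 with a linear offset of 50, and Ccl12 minus Ccl7 by -3.38 and -1.93. Ccl8 minus Ccl12 rests on a gene near background in both groups, so its change is given in the plot of pairs and not read. The groups did not overlap in any of the 6 pairs. The pairs were made from members listed with results of this comparison known, and several hold Ccl12. Their separation was thus largely fixed in advance and is a description only. How often pairs of other genes separate was not tested. The exact two-sided permutation test gave p = 0.10 for each, also after Benjamini-Hochberg adjustment over the 6 pairs, and this is the smallest p that 3 against 3 wells allow.

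**Figure D2:**
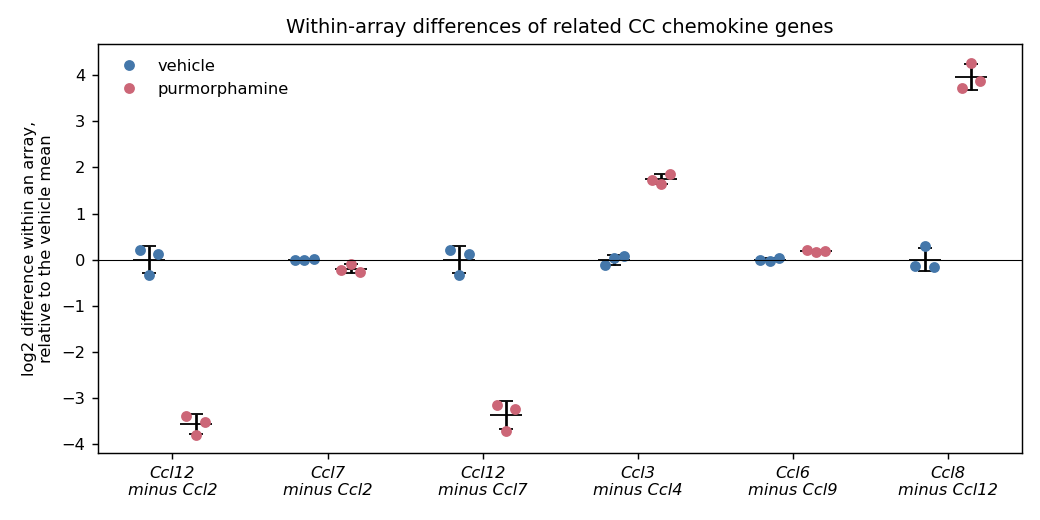
Log2 signal of the first gene minus that of the second on the same array, relative to the mean of the vehicle wells (vertical axis), for 6 pairs of related CC chemokine genes; points are wells and bars the mean and SD of 3 wells. Ccl3 minus Ccl4 lies 1.75 higher with purmorphamine; the separation of the pairs with Ccl12 is not exact, since its treated wells are near background.

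The other CC ligands that were measured gave no call. Of 9 further ligands measured by a probe set of their own, 0 rose and 0 fell by limma, beside 7.18% and 7.16% of all genes tested. Among so few genes, 0 calls is near that share and is not read as a result about them. At an unadjusted p under 0.05 there were 0 higher and 2 lower, Ccl11 and Ccl1, beside 3129 and 3125 of all 22180 genes. Their differences ran from -0.24 to 0.14, with a median of -0.06. They include Ccl17 (-0.10) and Ccl22 (-0.11), ligands of Ccr4 known from alternatively activated macrophages and dendritic cells, Ccl20 (-0.04), the ligand of Ccr6, Ccl25 (0.01), Ccl27a (0.14) and Ccl28 (-0.06). Ccl1, Ccl22 and Ccl26 were near background in both groups, and Ccl19, the Ccl21 copies and Ccl27b have no probe set with their symbol alone. Whether the listed and unlisted ligands differ in response was not tested.

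**Figure D3:**
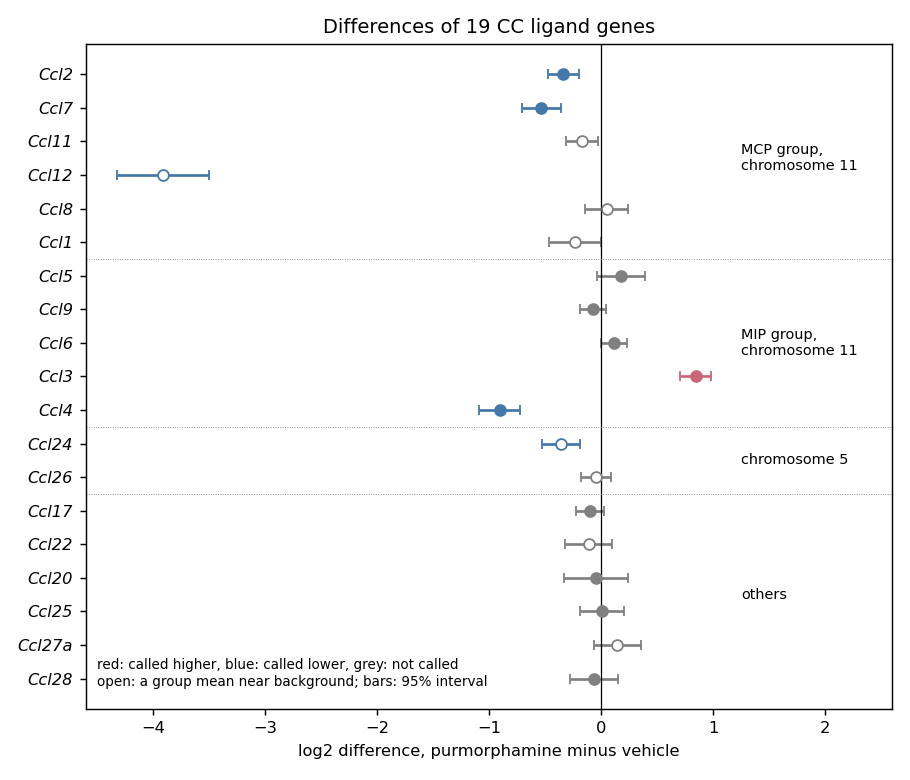
Difference in log2 signal, purmorphamine minus vehicle (horizontal axis), of 19 CC ligand genes with 95% intervals of the limma fit, ordered along their clusters. Ccl12 stands at -3.91 and Ccl3 at 0.84, with Ccl4 at -0.90 beside it; open points mark genes with a group mean near background.

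Receptors of these ligands were measured in the same wells. Of 14 CC receptors and scavenging receptors, 1 rose and 4 fell, and 10 were near background in both groups. These are shares of 7.14% and 28.6%, beside 7.18% and 7.16% of all genes tested. Ccr1, the shared receptor of Ccl3, Ccl5, Ccl6, Ccl7 and Ccl9, had 9.90, 9.85 and 9.88 with vehicle and 8.76, 8.68 and 8.61 with purmorphamine. It fell by 1.19 log2 units, which is 2.28-fold, with an SE of 0.06 (limma adjusted p = 8.84e-05). Ccr2 fell by 0.52 (limma adjusted p = 0.010), Ccr3 by 0.48 and the Ccr1 relative Ccr1l1 by 0.49, all from means of 5.85 or less that were near background. Ccr3 was not called without vehicle replicate 2 or vehicle replicate 3, which left 3 receptors lower. Ccrl2, an atypical receptor that does not signal through G proteins, had 7.43, 7.33 and 7.33 with vehicle and 9.16 in each purmorphamine well, a rise of 1.80 log2 units or 3.49-fold. The scavenger Ackr2, which takes up inflammatory CC chemokines, differed by -0.05. Without the dimmest genes (a share of 0.333), 5 receptors stayed in the table, and Ccr1 was the 1 called lower.

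Genes of signals that are known to induce CC chemokines were called as often as all genes tested, 14.3% in either direction. Of 14 inducer genes, 12 were not called, 7 were near background in both groups, 2 rose and 0 fell. The 2 that rose were Il1a by 1.29 and Il1b by 0.44 log2 units, both interleukin 1 genes. Over all genes tested 7.18% were called higher and 7.16% lower, beside 14.3% and 0% here. Tnf, tumour necrosis factor, differed by 0.17 with its groups apart (limma adjusted p = 0.074), and Il6 by -0.22. Ifng, Ifnb1, Il4, Il13 and Il33 were near background in both groups. Of 12 genes of the NF-kB pathway, which carries many of these signals to chemokine promoters, 4 rose and 0 fell, all feedback inhibitors or modulators: Tnip1 (0.51), Nfkbiz (0.44), Nfkbie (0.35) and Tnfaip3 (0.33). The factor genes Rela (0.15), Rel (0.19) and Relb (0.18) were not called. The medians were -0.06 for the inducers and 0.19 for the NF-kB genes.

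**Figure D4:**
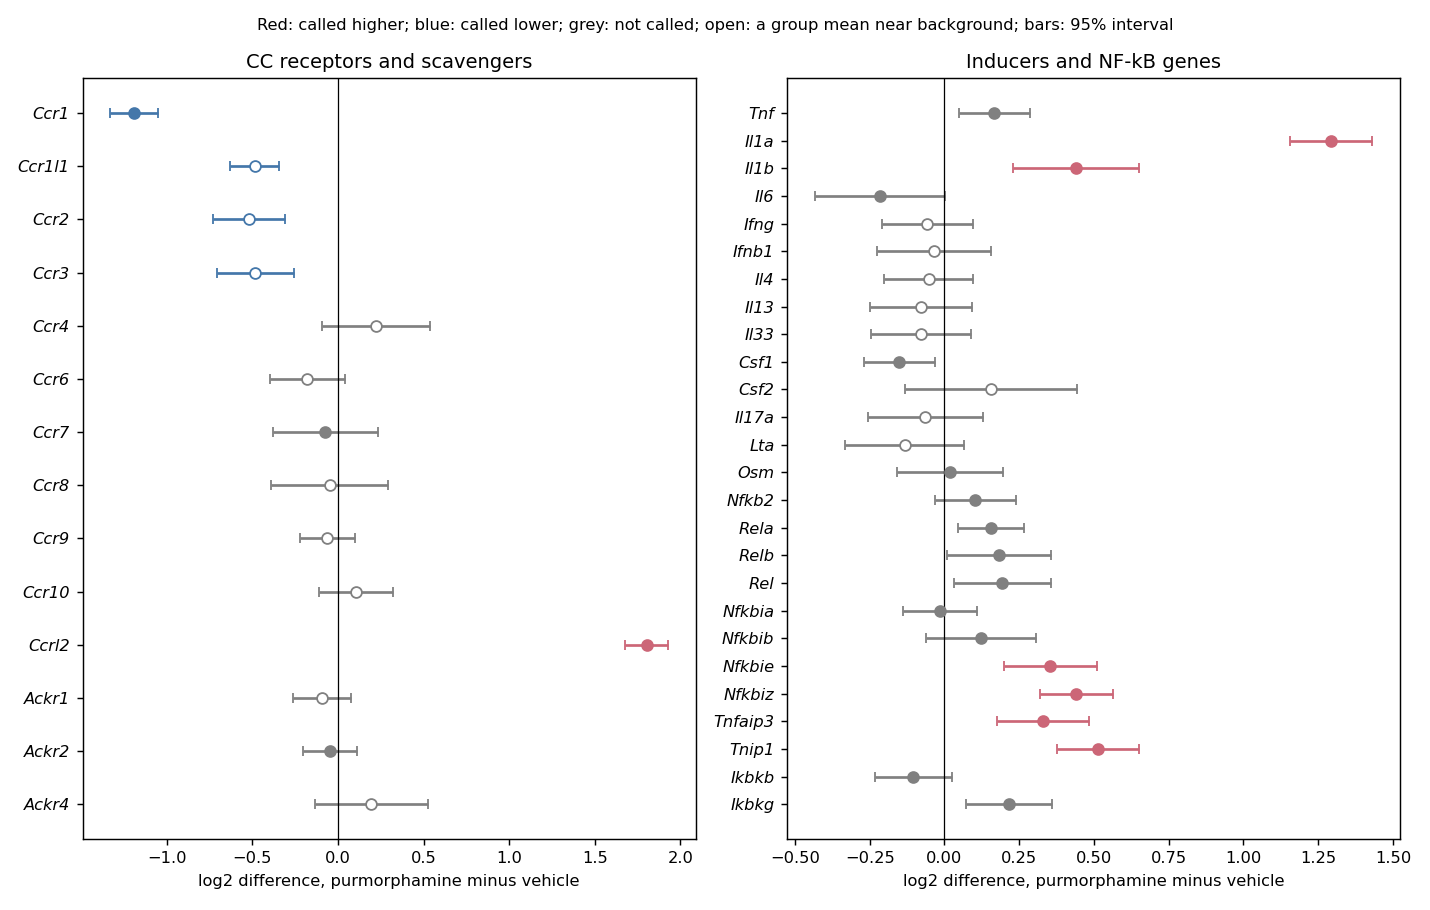
Difference in log2 signal, purmorphamine minus vehicle (horizontal axes), with 95% intervals, for 14 CC receptors and scavengers (left) and 26 inducer and NF-kB genes (right). Ccr1 stands at -1.19 and Ccrl2 at 1.80, and open points mark genes with a group mean near background.

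Genes that macrophages use in different states moved unevenly beside the ligands. Of 14 genes induced by endotoxin, 4 rose and 0 fell: the itaconate enzyme gene Acod1 (0.47) and the neutrophil chemokine genes Cxcl3 (0.48), Cxcl1 (0.47) and Cxcl2 (0.44). These are shares of 28.6% higher and 0% lower, beside 7.18% and 7.16% of all genes tested. The other 10 were not called, 5 genes were near background in both groups, and the list median was 0.0021. At an unadjusted p under 0.05 by limma, 5 were higher and 2 lower, Cxcl9 (-0.22) and Cxcl10 (-0.26). Of 13 genes linked to alternative activation, 0 rose and 5 fell: Arg1 (-2.03), Folr2 (-0.84), Mrc1 (-0.62), Tgm2 (-0.53) and Cd163 (-0.37). These are shares of 0% higher and 38.5% lower, with 8 not called and a list median of -0.16. Both lists were chosen with earlier results known, and whether either responds as a whole was not tested. Cd163, a haemoglobin scavenger receptor, was near background in both groups. Chil3, a chitinase-like protein of such cells, differed by -0.02 and was not called.

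The labels name lung fibroblasts, and the wells held both fibroblast and macrophage transcripts well above background. Of 12 fibroblast markers 8 rose and 2 fell, with Pdgfra (0.83), Col1a2 (0.48), Dcn (0.46), Pdgfrb (0.38), S100a4 (-0.35) and Tcf21 (0.42) at the smallest p, and their mean signal lay between 10.41 and 10.49 with vehicle and between 10.69 and 10.74 with purmorphamine. Of 12 macrophage markers 5 fell, Fcgr1 (-1.79), Itgam (-1.46), Siglecf (-0.78), Csf1r (-0.63) and Adgre1 (-0.37), and 1 rose, Itgax (0.31). Their mean signal lay between 11.81 and 11.83 with vehicle and between 11.40 and 11.48 with purmorphamine. Lyz2 (0.05), Cd68 (0.13) and Ptprc (0.07) were not called. No marker of either list was near background in both groups, but the fibroblast marker Lum, called higher, was near background with vehicle (mean 6.01, and 6.51 with purmorphamine). In bulk wells, fewer cells of a type and less RNA per cell cannot be told apart, and the part of the macrophage markers in the chemokine differences was not tested. Endothelial markers rose in 4 of 8 cases: Vwf (0.50), Tie1 (0.36), Cdh5 (0.34) and Pecam1 (0.30). Epithelial markers rose in 1 of 10 (Epcam, 0.50) and markers of neutrophils, mast cells and eosinophils in 1 of 11 (Csf3r, 0.43), with 0 falls in these 3 lists. Over all genes tested 7.18% were called higher and 7.16% lower. A single call among 10 or 11 genes is near that share and is not read as a change of the list. B cell markers gave 0 calls by limma among 5, with 0 higher and 1 lower at an unadjusted p under 0.05.

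Over the 6 arrays, the genes whose signal followed that of Ccl12 most closely were Anln, a cytokinesis protein (Pearson r = 0.999), AI662270 (0.999), the sorting receptor Sorl1 (0.999), the mitochondrial dehydrogenase subunit Idh3a (0.998) and the macrophage transcription factor Maf (0.998). These genes differed by -0.65, -0.36, -0.80, -0.42 and -1.41. For Ccl3 they were Gtpbp2, Lgals3 (galectin 3), Mgll (monoglyceride lipase), Zfp964 and Zfp318, each at 0.997, with differences of 0.71, 0.45, 0.97, 0.38 and 0.18. These coefficients describe 6 arrays that share the difference between 2 groups, and any gene with groups far apart reaches a high value.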

How the data were processed

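RNA of 6 wells was measured on Affymetrix arrays after poly(T)-primed amplification of 100 ng total RNA, per the labels' protocols. The submitters' processing notes name oligo, RMA and limma without versions. The authors' deposited values are log2 signals, 1 per array for each probe set. RMA removes background, equalises the arrays' distributions and summarises probes, which compresses changes of dim genes and hides a change common to all genes.

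Of 41345 probe sets, 23521 had 1 gene symbol in the supplied platform annotation, 1814 several and 16010 none. The brightest probe set of each gene left 22180 genes. Purmorphamine minus vehicle was fitted on all 6 arrays with lmFit and eBayes of limma 3.58.1 (R 4.3.3), without a block, two-sided, and intervals are 95%. Pairs of genes were compared with exact permutation tests. The steps were tested on simulated data, and plots were drawn with matplotlib 3.10.9 in Python 3.11.15. The members and lists were chosen with earlier results of these data known. By the naming rule the text gives all members, the called genes of each other list (at most 6 with the smallest p), uncalled ligands and receptors related to members, and the 5 genes most like the members of largest rise and fall. Other genes were named after their values were seen.

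The alternatives were median centring, quantile normalization, an offset of 50 on linear signals, dropping the dimmest genes (a share of 0.333), averaging probe sets per gene, a variance trend with a robust fit, weights per array, a replicate block, 1 array left out in turn, a threshold of 0.1, every probe set as its own test, the arrays' lower quartile as background level, and, chosen after seeing the data, both replicate 3 arrays left out.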

Additional observations from a re-analysis of the deposited data

How the results depend on the processing

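The 10 members and the alternative settings gave 158 pairs of member and setting. The direction was the same in all of them, and in 149 so was the call. Dropping the dimmest genes, averaging probe sets, trend and robust, the replicate block and testing every probe set leave each member's difference unchanged. The direction was therefore fixed in advance in those settings, and only the call could change. The exceptions were Ccl24 in 6, Ccl2 in 1 and Ccl6 in 2. The number of members called higher was 2 with a linear offset of 50 and 2 with trend and robust, and 1 with each array left out (1 to 1). The number called lower was 4 to 5 with 1 array left out and 3 without both replicate 3 arrays. Calls over all genes shifted as well, from 1593 higher and 1588 lower in the main fit. They were 2291 and 2165 with the offset, 2416 and 2281 with trend and robust, and 440 and 511 without both replicate 3 arrays. The changed calls of single members are therefore not read as particular to them. Receptors called lower were 3 to 4 with 1 array left out, 1 without the dimmest genes, where 5 receptors were tested, and 2 without both replicate 3 arrays. With the arrays' lower quartile as background level, 1 group mean (Ccl12 with purmorphamine) was near background, in place of 5. Samples that share a replicate number deviated together with correlations of 0.11, 0.02 and 0.10 across genes. These are small, and the main fit does not pair the wells by number. Yet each array correlated best with the array of its own number, and both replicate 3 arrays lay apart on the second principal component. Whether wells of the same number share a source or a handling step was not tested. With the replicate block, 1 member rose and 5 fell, as without it, while over all genes 1193 rose and 1239 fell, against 1593 and 1588. Signal over background limits the reading of Ccl8, Ccl24, Ccr2, Ccr3 and Ccr1l1, which lay near background in both groups.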
